A study of Homo sapiens with 2 samples.

Results

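The regions described here are the internal coding exons of protein-coding genes, meaning the exons of the autosomal MANE Select transcripts (1 reference transcript per gene) other than the first and the last exon of each transcript. An exon entered if it lay more than 2 kb from every annotated start of a protein-coding transcript and held at least 5 CpG cytosines with at least 5 reads in each library. Of 156810 distinct internal exons, 126638 met the distance limit, and 7530 of these (5.95%) also had enough sites. The others held too few shared sites, with 115623 exons holding 0 and 3485 holding 1 to 4. The 7530 exons belonged to 3931 genes and held 119310 sites, or 3.77% of the 3168726 sites read in both libraries. At the limit of the rule, 605 exons had exactly 5 shared sites and 962 left out had 4. Coding bases were present in 7504 of the exons, and the other 26 were untranslated.

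The libraries were 1 MCC-Seq (methylC-capture sequencing) library of SKNO-1 and 1 of SKNO1-siAE. SKNO-1 is an acute myeloid leukemia cell line that carries the RUNX1-RUNX1T1 (AML1-ETO) fusion of t(8;21), and SKNO1-siAE was made from it with a lentivirus that encodes oligonucleotides against the fusion junction of the mRNA. Both were grown in the same medium, and neither the labels nor the methods say whether SKNO1-siAE was a clone or a pool, or whether the SKNO-1 cells received a control virus. The assay reads DNA, so the silencing of the fusion transcript was not checked here. There was 1 library per cell line, so no difference below has a replicate check, and silencing, culture and library cannot be told apart. The libraries held 83620068 and 82164216 site reads, meaning the depths of all CpG sites added up, so that a sequenced read counts once at every CpG it covers, and the median depth of the exonic sites was 16 reads in each. As a check of the cell type, the promoters of PTPRC, SPI1, MPO, CD33, LYN, VAV1 and RUNX1, genes of blood cells, had levels of at most 0.0317 in both libraries (from 1 site at MPO to 31 at LYN), whereas those of epithelial and other tissue genes such as EPCAM, CDH1, ALB and GFAP had 0.698 or more. LCP1, a leukocyte actin-bundling gene, was the exception, with 0.741 in SKNO-1 and 0 in SKNO1-siAE.

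DNA methylation in mammals is placed mainly on the cytosine of CpG dinucleotides. CpG-rich promoters of active genes are usually free of it, while the bodies of transcribed genes usually carry it, and exons tend to carry more of it than the introns beside them. DNMT3B is recruited to gene bodies by the histone mark H3K36me3, and DNMT1 copies methylation to the new strand after replication. In coding exons CpG also has a role in the genetic code, since most arginine codons begin with CG.

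The sequences of 8 exons are shown first because they had the largest differences in each direction among well-covered exons, with 10 or more sites and 100 or more site reads in each library and 1 exon per gene. Some exons with fewer sites or site reads stood farther apart. They are printed 5′ to 3′ on the strand of the gene, from the GRCh37 (hg19) assembly, with every CpG in capitals. The capitals mark where methylation can be read, on either strand, although not every CpG reached 5 reads on both strands in each library. The first 4, which were nearly unmethylated in SKNO-1 and nearly fully methylated in SKNO1-siAE, lie at chr17:77755495-77755600 (CBX2, + strand), chr5:176734782-176734965 (MXD3, - strand), chr19:38853016-38853214 (CATSPERG, + strand) and chr1:156215573-156215778 (PAQR6, - strand).
CBX2 exon 4: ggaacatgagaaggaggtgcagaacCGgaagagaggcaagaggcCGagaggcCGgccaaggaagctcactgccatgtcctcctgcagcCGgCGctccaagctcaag
MXD3 exon 5: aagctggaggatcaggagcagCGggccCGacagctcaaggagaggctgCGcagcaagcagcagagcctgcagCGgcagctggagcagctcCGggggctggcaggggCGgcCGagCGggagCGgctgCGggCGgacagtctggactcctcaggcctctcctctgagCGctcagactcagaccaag
CATSPERG exon 19: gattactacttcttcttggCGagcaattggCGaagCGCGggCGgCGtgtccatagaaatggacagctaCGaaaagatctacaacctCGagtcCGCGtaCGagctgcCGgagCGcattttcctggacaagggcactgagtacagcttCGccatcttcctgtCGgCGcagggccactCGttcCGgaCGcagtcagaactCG
PAQR6 exon 4: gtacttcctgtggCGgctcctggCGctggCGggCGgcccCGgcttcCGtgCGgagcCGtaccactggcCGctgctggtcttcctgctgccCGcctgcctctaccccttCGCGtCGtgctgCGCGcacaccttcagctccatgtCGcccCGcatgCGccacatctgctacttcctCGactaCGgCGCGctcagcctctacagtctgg

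The other 4 exons had the reverse state, nearly fully methylated in SKNO-1 and nearly unmethylated in SKNO1-siAE. They lie at chr15:100672212-100672357 (ADAMTS17, - strand), chr1:2082229-2082417 (PRKCZ, + strand), chr1:45189794-45189916 (ARMH1, + strand) and chr5:177987683-177987749 (COL23A1, - strand). These sequences hold between 5 CpG dinucleotides (COL23A1 and CBX2) and 22 (PAQR6).
ADAMTS17 exon 12: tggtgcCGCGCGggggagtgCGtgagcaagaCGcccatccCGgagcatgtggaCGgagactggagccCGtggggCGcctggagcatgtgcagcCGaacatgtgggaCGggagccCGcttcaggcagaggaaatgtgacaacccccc
PRKCZ exon 9: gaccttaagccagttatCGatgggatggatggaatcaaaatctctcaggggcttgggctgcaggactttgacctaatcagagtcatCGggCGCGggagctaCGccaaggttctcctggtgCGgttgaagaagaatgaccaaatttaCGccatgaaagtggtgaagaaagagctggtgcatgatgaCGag
ARMH1 exon 7: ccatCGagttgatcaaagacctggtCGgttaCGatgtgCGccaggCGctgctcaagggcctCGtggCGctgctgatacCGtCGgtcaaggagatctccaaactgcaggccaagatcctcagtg
COL23A1 exon 2: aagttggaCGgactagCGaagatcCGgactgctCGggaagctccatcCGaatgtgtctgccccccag

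Most internal exons were highly methylated in both libraries. A site's level is the methylated fraction of its reads, from 0 to 1, and an exon's level is the mean over its shared sites. The mean level of the 7530 exons was 0.857 ± 0.219 (SD over exons) in SKNO-1 and 0.898 ± 0.179 in SKNO1-siAE, and the medians were 0.945 and 0.960. A level of at least 0.8 was found for 6005 exons (79.7%) in SKNO-1 and for 6587 (87.5%) in SKNO1-siAE, and 5744 exons (76.3%) had it in both. Levels under 0.1, called unmethylated here, were rare, with 238 exons (3.16%) in SKNO-1 and 150 (1.99%) in SKNO1-siAE. Between these extremes, 319 exons in SKNO-1 and 174 in SKNO1-siAE had a level from 0.4 to 0.6, which in bulk DNA cannot be resolved into different cells or different alleles. Pooling the site reads of all exonic sites, 0.880 of 2427157 site reads were methylated in SKNO-1 (95% Wilson interval 0.879 to 0.880) and 0.917 of 2404278 in SKNO1-siAE (0.917 to 0.917). These intervals, like those given for single exons below, treat site reads as independent. Several sites are read on the same molecule and the reads carry no molecular identifiers, so the intervals are too narrow even for counting error.

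At a minimum difference of 0.2, a smaller share of internal exons differed between the libraries than of other captured regions. The mean difference, SKNO-1 minus SKNO1-siAE, was -0.0403 and the median was -0.0110, and 4267 exons (56.7%) differed by less than 0.05. A difference of at least 0.2, the minimum of the study's methods, was found for 688 exons (9.14%) that were lower in SKNO-1 and 210 (2.79%) that were higher. The background for these shares was 17.4% lower and 4.70% higher among 172344 autosomal tiles of 500 bp, promoters included. Intronic windows of 200 bp of the same transcripts, also more than 2 kb from protein-coding starts, had 16.3% lower and 4.77% higher (36834 windows), and last exons had 11.5% and 3.59% (6184 exons). The internal exons thus had the smallest share in each direction of these 4 sets at this minimum. The split between directions was much the same in all 4, since 76.6% of the differing internal exons were lower in SKNO-1, against 76.2% of last exons, 77.3% of intronic windows and 78.8% of tiles. That order did not hold at larger minimums. Differences of at least 0.5 were found for 190 internal exons lower in SKNO-1 (2.52%) and 56 higher (0.744%), against 2.99% and 0.647% of last exons, 4.19% and 1.20% of intronic windows and 5.07% and 1.26% of tiles. Differences of at least 0.9 were found for 41 internal exons lower in SKNO-1 (0.544%) and 13 higher (0.173%), against 12 (0.194%) and 1 (0.0162%) of last exons, 157 (0.426%) and 69 (0.187%) of intronic windows and 1356 (0.787%) and 330 (0.191%) of tiles. At 0.9, the share lower in SKNO-1 was thus larger for internal exons than for last exons and intronic windows, and the share higher was larger than for last exons. The 4 sets differ in region length, with a median of 171 bp for internal exons. The part of length in these shares was not tested.

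**Figure D1:**
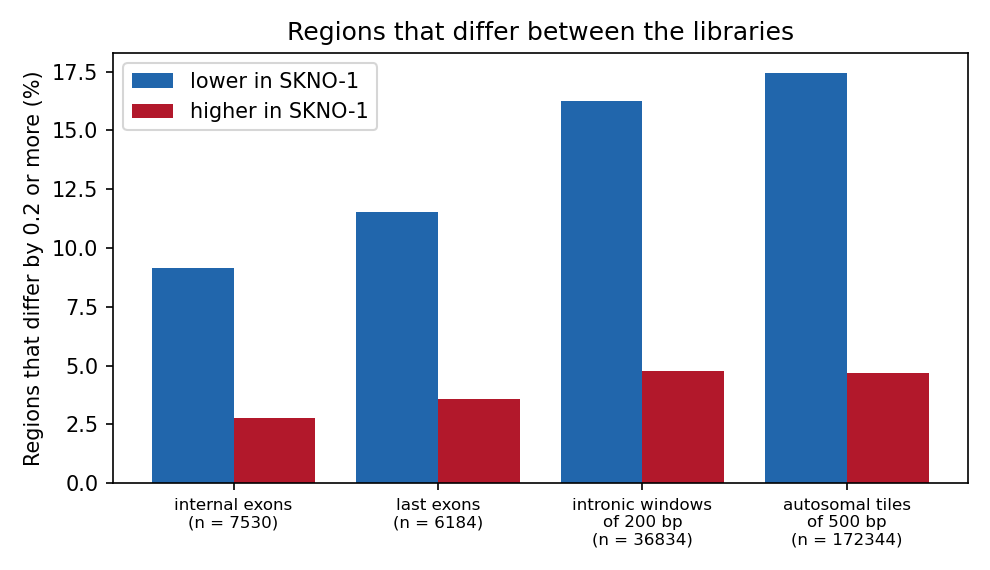
Bars give the percentage of regions whose mean methylation level differed by at least 0.2 between the libraries, lower (blue) or higher (red) in SKNO-1, for 4 sets of regions with the number of each on the horizontal axis. Internal exons have the lowest bars in both directions, 9.14% and 2.79%, and tiles and intronic windows the highest.

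Among single sites, a smaller share of exonic sites than of all shared sites differed. Each site was compared with a 2-sided Fisher's exact test on its reads with Benjamini-Hochberg adjustment over all 3168726 shared sites, which compares these libraries and not the conditions. With an adjusted p below 0.05 in this Fisher's exact test and levels at least 0.2 apart, 8576 exonic sites (7.19%) were lower and 3528 (2.96%) were higher in SKNO-1, against 11.7% and 4.41% of all shared sites. The mean level of the exonic sites was 0.867 in SKNO-1 and 0.908 in SKNO1-siAE, and over all shared sites it was 0.587 and 0.655.

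With 1 library per cell line, the only spread that could be measured within a library was that between the strands of an exon. In the 5069 exons with at least 3 shared sites on each strand, the + and - strand levels differed by 0.2 or more in 359 exons (7.08%) of SKNO-1 and in 291 (5.74%) of SKNO1-siAE, in either direction about equally often (176 and 183, 149 and 142). Between the libraries, measured on a single strand, 608 exons (12.0%) differed this much by their + strands and 635 (12.5%) by their - strands, and the directions were uneven, with 459 and 460 lower in SKNO-1 against 149 and 175 higher. The contrast was larger for differences of at least 0.5, found in 25 and 21 exons between strands and in 145 and 152 between libraries. Modest differences of single exons therefore overlapped the spread within a library. The share of differing exons also fell with the site reads per exon, which combine depth and number of sites. Among the 610 exons with fewer than 50 site reads in the less covered library (median 6 sites), 15.7% were lower and 5.74% higher in SKNO-1, and among the 976 with 500 site reads or more (median 33 sites), 3.79% and 0.615%.

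A level under 0.1 in SKNO-1 with a level of at least 0.5 in SKNO1-siAE was found for 97 exons of 88 genes, and the reverse for 27 exons of 24 genes. They are called low in SKNO-1 only and low in SKNO1-siAE only below, and exons under 0.1 in a single library with less than 0.5 in the other are not counted among them. These are 1.29% and 0.359% of the internal exons, where 2.73% and 0.714% of the tiles, 1.76% and 0.584% of the intronic windows and 0.922% and 0.194% of the last exons had the same states. In the 97 exons, 0.0374 of the site reads were methylated in SKNO-1 (Wilson interval 0.0350 to 0.0399, 23254 site reads) and 0.855 in SKNO1-siAE (0.851 to 0.859, 26304 site reads). In the 27 exons the shares were 0.823 (0.813 to 0.833, 5368 site reads) and 0.0178 (0.0146 to 0.0218, 5211 site reads). Methylated site reads were absent in SKNO-1 from 34 of the 97 exons and in SKNO1-siAE from 16 of the 27. These levels defined the classes and are given as a description. At the limits of these classes lay exon 3 of PGAM5, just inside with 0.0989 in SKNO-1 and 0.859 in SKNO1-siAE, and exon 5 of HAPLN2, just outside with 0.107 and 0.559. In the other direction these were exon 10 of JAG2, with 0.587 and 0.0794, and exon 7 of COL12A1, with 0.602 and 0.112.

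**Figure D2:**
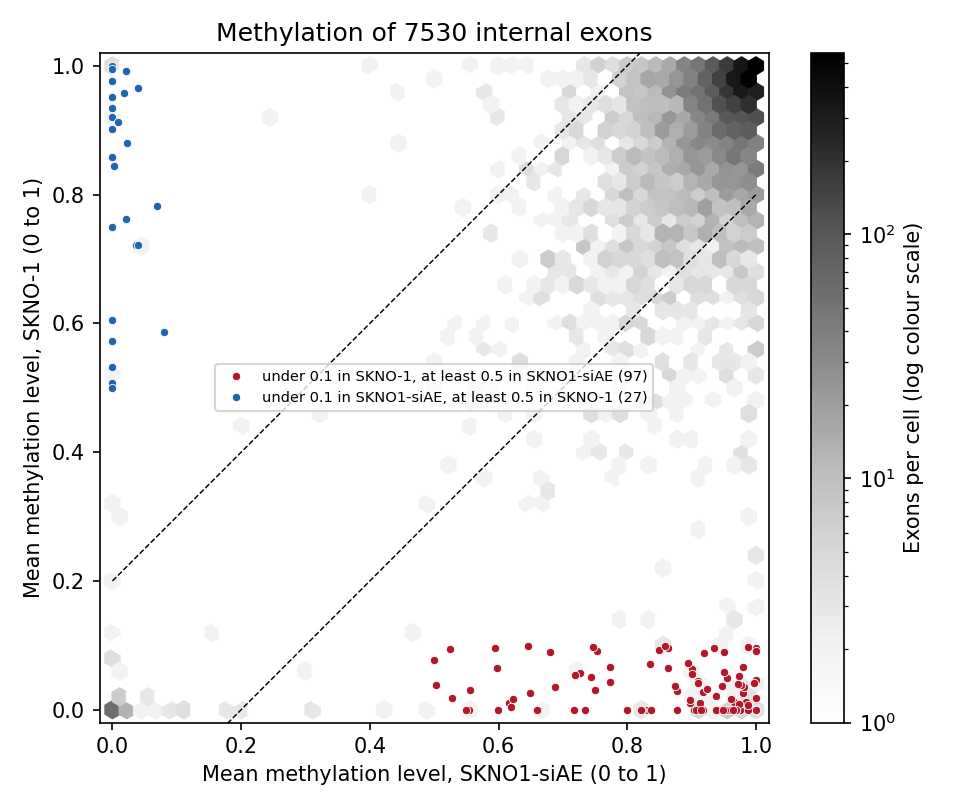
Each internal exon is placed by its mean methylation level in SKNO1-siAE (horizontal) and in SKNO-1 (vertical), with grey shade for the number of exons on a log colour scale and dashed lines at a difference of 0.2. Most exons crowd the upper right corner, and the 97 exons under 0.1 in SKNO-1 and at least 0.5 in SKNO1-siAE (red) and the 27 with the reverse (blue) line the lower and the left edge.

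The exons that were low in SKNO-1 belonged to genes of many kinds. The 12 named here, 1 per gene, had the largest differences among 35 exons. These 35 exons were under 0.1 in SKNO-1 and at least 0.8 in SKNO1-siAE. Each had 10 or more sites and 100 or more site reads in each library. Exon 4 of 5 of CBX2, which encodes a chromobox subunit of Polycomb repressive complex PRC1, had 0 of 180 site reads methylated in SKNO-1 (0, Wilson interval 0 to 0.0209) and 186 of 188 in SKNO1-siAE (0.989, 0.962 to 0.997), over 10 sites. Exon 5 of 6 of MXD3, a partner of MAX that opposes MYC, had 2 of 122 (0.0164, 0.0045 to 0.0578) and 116 of 116 (1, 0.968 to 1), over 12 sites. Exon 19 of 29 of CATSPERG, an auxiliary subunit of the CatSper calcium channel of sperm, had 2 of 197 (0.0102, 0.00279 to 0.0363) and 596 of 603 (0.988, 0.976 to 0.994), over 20 sites. Exon 4 of 8 of PAQR6, a membrane progestin receptor, had 0 of 194 (0, 0 to 0.0194) and 502 of 514 (0.977, 0.960 to 0.987), over 31 sites. In these 4 exons the levels of single sites did not overlap between the libraries, as every site lay at or under 0.143 in SKNO-1 and at or over 0.571 in SKNO1-siAE.

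Exon 4 of RET, the receptor tyrosine kinase for ligands of the GDNF family, averaged 0.0117 in SKNO-1 and 0.984 in SKNO1-siAE over 50 sites. Exon 4 of ZNF704, a zinc finger gene, had 0 and 0.964 over 20 sites. Exon 14 of GFPT2, a rate-limiting enzyme of the hexosamine pathway, had 0 and 0.957 over 25 sites. The remaining exons among the 12 were exon 3 of PRSS27, a serine protease gene (0.0420 and 0.998), exon 2 of LDLRAD2 (0.0118 and 0.966), exon 9 of SMYD4, which encodes a SET and MYND domain protein (0.0260 and 0.980), exon 2 of ZDHHC24, of the palmitoyltransferase family (0.0160 and 0.961), and exon 8 of GIPR, the receptor for the incretin GIP (0 and 0.939). Site reads over these exons were not always balanced. The log2 ratio of site reads, SKNO-1 to SKNO1-siAE, was -1.64 at CATSPERG, -1.57 at PRSS27, -1.51 at SMYD4, -1.43 at PAQR6 and -1.37 at ZDHHC24, while at the rest of the 12 it lay between -0.86 and 0.55. The part of these read ratios in the differences was not tested at single exons.

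Only CATSPERG and GIPR had 3 exons each in this class. In CATSPERG these were all of its measured internal exons, exons 17, 18 and 19, with levels of 0.00962, 0.0917 and 0.00714 in SKNO-1 and 0.974, 1 and 0.988 in SKNO1-siAE. In GIPR they were exons 8, 11 and 12, at 0, 0 and 0.0144 in SKNO-1 and at 0.939, 0.878 and 0.897 in SKNO1-siAE. Exons 6 and 7 of GIPR, farther upstream, were methylated in both libraries, at 0.823 and 0.933 in SKNO-1 and at 0.938 and 0.931 in SKNO1-siAE.

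The reverse state was rarer, and all 10 genes that met the same limits are named. Exon 12 of 22 of ADAMTS17, a secreted metalloprotease, had 211 of 212 site reads methylated in SKNO-1 (0.995, Wilson interval 0.974 to 0.999) and 0 of 198 in SKNO1-siAE (0, 0 to 0.0190), over 12 sites. Exon 9 of 18 of PRKCZ, the atypical protein kinase C zeta, had 263 of 267 (0.985, 0.962 to 0.994) and 5 of 209 (0.0239, 0.0103 to 0.0548), over 11 sites. Exon 7 of 12 of ARMH1, an armadillo-like helical domain gene, had 134 of 143 (0.937, 0.885 to 0.967) and 0 of 127 (0, 0 to 0.0294), over 18 sites. Exon 2 of 29 of COL23A1, a transmembrane collagen, had 236 of 246 (0.959, 0.927 to 0.978) and 5 of 183 (0.0273, 0.0117 to 0.0624), over 10 sites. The levels of single sites did not overlap between the libraries in these 4 exons either, with the lowest in SKNO-1 at 0.444 and the highest in SKNO1-siAE at 0.238.

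The other 6 exons were exon 11 of GRK2, a kinase of G protein-coupled receptors (0.934 in SKNO-1 and 0 in SKNO1-siAE), exon 13 of ZFR, a zinc finger RNA-binding protein (0.966 and 0.0392), exon 7 of CRELD2, a protein of the endoplasmic reticulum (0.920 and 0), exon 3 of CRYBG1, a crystallin domain gene (0.913 and 0.00935), exon 23 of SYNJ2, an inositol phosphatase (0.902 and 0), and exon 11 of MFSD10, a member of a transporter family (0.845 and 0.00278). In SKNO-1 the lowest single sites of these exons ranged from 0 in CRELD2 to 0.759 in GRK2, while the highest site in SKNO1-siAE was at 0.214, in CRYBG1.

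**Figure D3:**
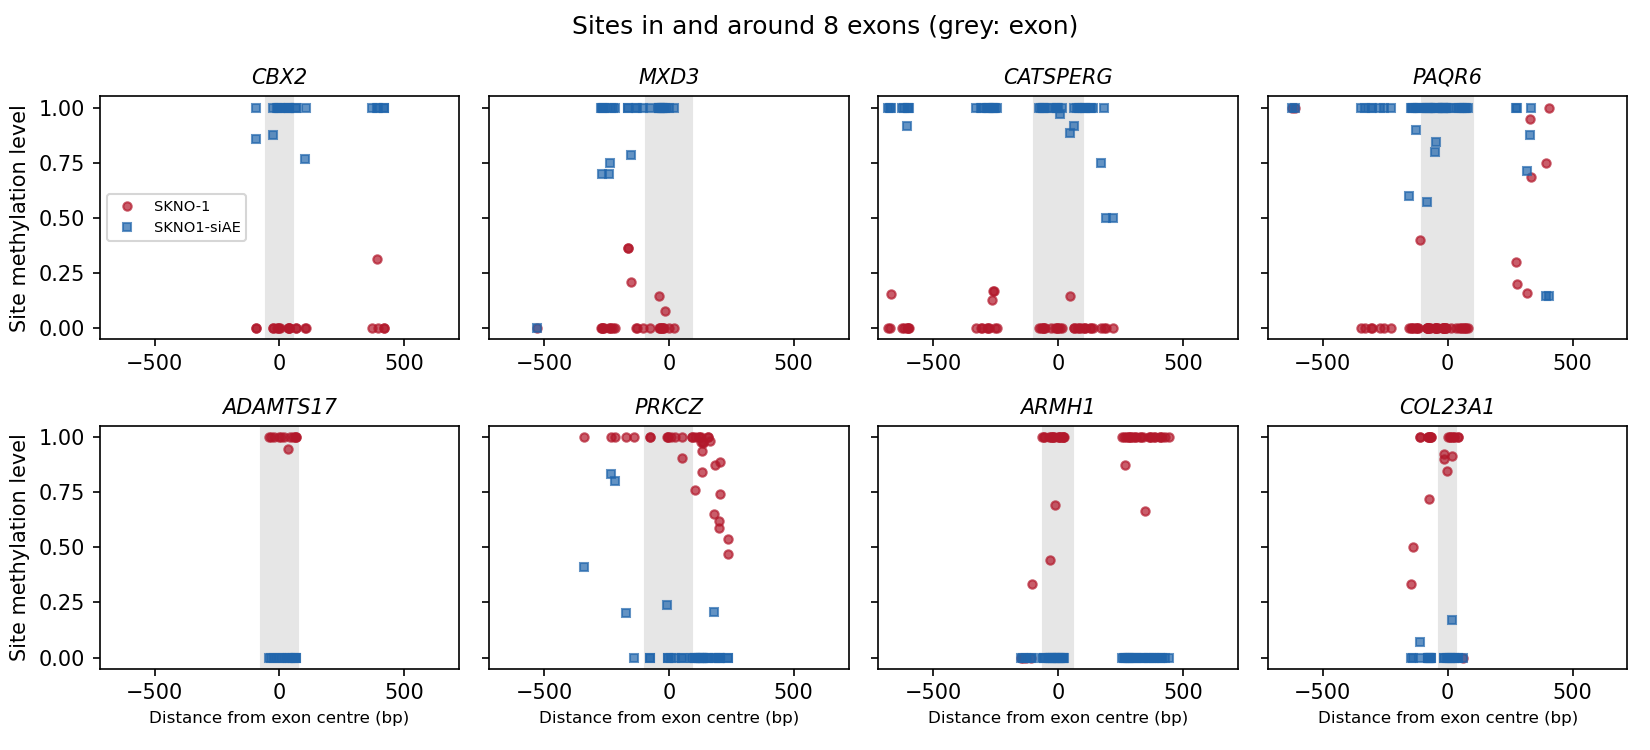
Methylation level of every shared site in and around the 8 exons whose sequences are given, by distance from the exon centre in bp, in SKNO-1 (red circles) and SKNO1-siAE (blue squares), with the exon in grey. In the top row the sites of SKNO-1 lie near 0 across the exon and those of SKNO1-siAE near 1, and in the bottom row the libraries change places.

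The low states were not confined to the exon. Within 250 bp outside the 66 exons low in SKNO-1 only that had at least 3 shared sites there, the median difference was -0.648, from 0.0632 in SKNO-1 to 0.898 in SKNO1-siAE (medians). It shrank to -0.228 at 251 to 500 bp (36 exons), to -0.125 at 501 to 1000 bp (36 exons) and to -0.0547 at 1001 to 2000 bp (52 exons). Around the exons low in SKNO1-siAE only, the corresponding medians were 0.729 (19 exons), 0.359 (9), 0.129 (15) and -0.00169 (18). At 501 to 1000 bp from these exons the median levels were still 0.889 in SKNO-1 and 0.0967 in SKNO1-siAE. There, 7 of the 15 exons had flanks at least 0.5 apart, as had 10 of the 36 low in SKNO-1 only. The median differences were thus small beyond 1 kb. Neighbouring exons of 1 gene were most alike when close. Over pairs of consecutive measured exons less than 200 bp apart, the differences had a Pearson correlation of 0.644 (362 pairs), which was 0.333 from 200 bp to under 500 bp (197 pairs), 0.244 from 500 bp to under 1 kb (212 pairs), 0.257 from 1 kb to under 3 kb (399 pairs) and 0.203 at 3 kb or more (259 pairs). It was thus nearly flat from 500 bp on. These pairs share the libraries, and the closest ones can share reads, so the correlations are a description.

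Exons of a gene could also go opposite ways. Of the 3931 genes, 730 had an exon that differed by at least 0.2, and in 30 genes exons differed in both directions. Only 1 exon was measured in 2475 of the 3931 genes, which therefore could not go both ways. Among the 272 genes with 5 or more measured exons, 18 had exons in both directions. MMP9, a matrix metalloproteinase, was the only gene with exons in both classes. Its exons 4 and 5 were at 0 in SKNO-1 and at 0.914 and 0.821 in SKNO1-siAE, exon 6 was methylated in both (0.929 and 0.990), exon 10 was at 0.721 in SKNO-1 and 0.0404 in SKNO1-siAE, and exon 12 was at 0 in both. In PRKCZ, whose exon 9 was low in SKNO1-siAE, exon 12 went the other way (0.727 and 0.945), and exons 11, 14 and 16 were methylated in both libraries. CACNA1H, a T-type calcium channel gene, had exon 3 at 0.156 in SKNO-1 and 1 in SKNO1-siAE, and exon 4 at 1 and 0.397. MMP9, PRKCZ and CACNA1H were picked for these lines after their values were seen.

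The promoters, from 200 bp before to 200 bp after the MANE Select start, were examined after the exon values were known. Among the 88 genes with an exon low in SKNO-1 only, 63 had a measured promoter, of which 14 (22.2%) were lower by at least 0.2 in SKNO-1, 4 (6.35%) were higher and 45 differed by less. Among the 24 genes with an exon low in SKNO1-siAE only, 16 had one, of which 3 (18.8%) were lower, 0 were higher and 13 differed by less. Of all 2820 measured promoters of genes with a measured internal exon, 14.9% were lower, 3.09% were higher and 2313 differed by less. In GRIK4, a kainate receptor subunit, the promoter moved with exon 3 (promoter at 0.0635 in SKNO-1 and 0.921 in SKNO1-siAE). In ARMH1 the promoter was at 0 in SKNO-1 and 0.822 in SKNO1-siAE, opposite to exons 7 and 9, and in RET it was at 0.229 and 0, also opposite to exon 4.

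A further 99 exons of 92 genes were under 0.1 in both libraries. With the most sites among them came exon 2 of PELO, a ribosome rescue factor (0.00778 in SKNO-1 and 0.00342 in SKNO1-siAE over 65 sites), exon 18 of KIF19, a kinesin (0.00788 and 0.0773 over 55 sites), and exon 2 of BAHCC1, a BAH domain gene (0.00523 and 0 over 51 sites). Next were exon 7 of KRT10, the keratin of suprabasal epidermis (0 and 0.00680 over 49 sites), exon 7 of MPO, the myeloperoxidase of granulocytes (0.00407 and 0.0146 over 41 sites), and exon 3 of MATN1, a cartilage matrix protein (0.00360 and 0 over 37 sites). The PELO, BAHCC1, KRT10 and MATN1 exons contained the start of an annotated transcript that is not classed as protein-coding, so distance from protein-coding starts did not keep every start away. MPO is itself a marker of the myeloid lineage, and its promoter was at 0 in both libraries, at a single site with 6 reads in SKNO-1 and 11 in SKNO1-siAE.

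The exons low in both libraries and those low in SKNO-1 only were more often CpG-rich, while those low in SKNO1-siAE only were close to the methylated exons. The median CpG density was 8.70 per 100 bp in the 99 exons low in both libraries, 6.82 in the 97 low in SKNO-1 only, 6.03 in the 27 low in SKNO1-siAE only and 5.83 in the 5744 exons at 0.8 or more in both. A CpG-island-like sequence (over 50% GC across the exon and more than 0.6 of the CpG number that its base content predicts) was found for 59.6%, 56.7%, 44.4% and 44.9% of these classes, and for 43.1% of all 7530 exons. An annotated transcript start of any kind lay within 2 kb of 50.5%, 47.4%, 55.6% and 46.2%, so the classes were close to each other in this respect. By density, the 494 exons with 10 or more CpG per 100 bp had the lowest mean levels, 0.791 in SKNO-1 and 0.860 in SKNO1-siAE, and held 33 of the 99 exons low in both. The 2009 exons with 6 to 8 CpG per 100 bp had the highest, 0.882 and 0.916. Exon 2 had a mean of 0.833 in SKNO-1 and 0.875 in SKNO1-siAE (750 exons), and exons from 20 on had 0.870 and 0.910 (1121 exons).

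Methylation was higher inside the exons than beside them. At the acceptor end, sites averaged 0.793 in SKNO-1 and 0.856 in SKNO1-siAE in the intron from 300 bp to just over 100 bp away, 0.822 and 0.878 in the last 100 bp before the exon, and 0.866 and 0.906 in its first 100 bp. At the donor end the means were 0.869 and 0.908 in the last 100 bp of the exon, 0.821 and 0.871 in the first 100 bp of the intron, and 0.816 and 0.860 farther on. In the 3181 exons that could be set against their own flanks, the exon was above its flank in 60.6% of cases in SKNO-1 and in 59.5% in SKNO1-siAE. Over all 3181, the mean of exon minus flank was 0.0478 and 0.0373. An exon at least 0.2 above its flank was found 410 times in SKNO-1 and 306 times in SKNO1-siAE, and 0.2 below it 127 and 92 times. The step at the exon border was thus present in both libraries.

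**Figure D4:**
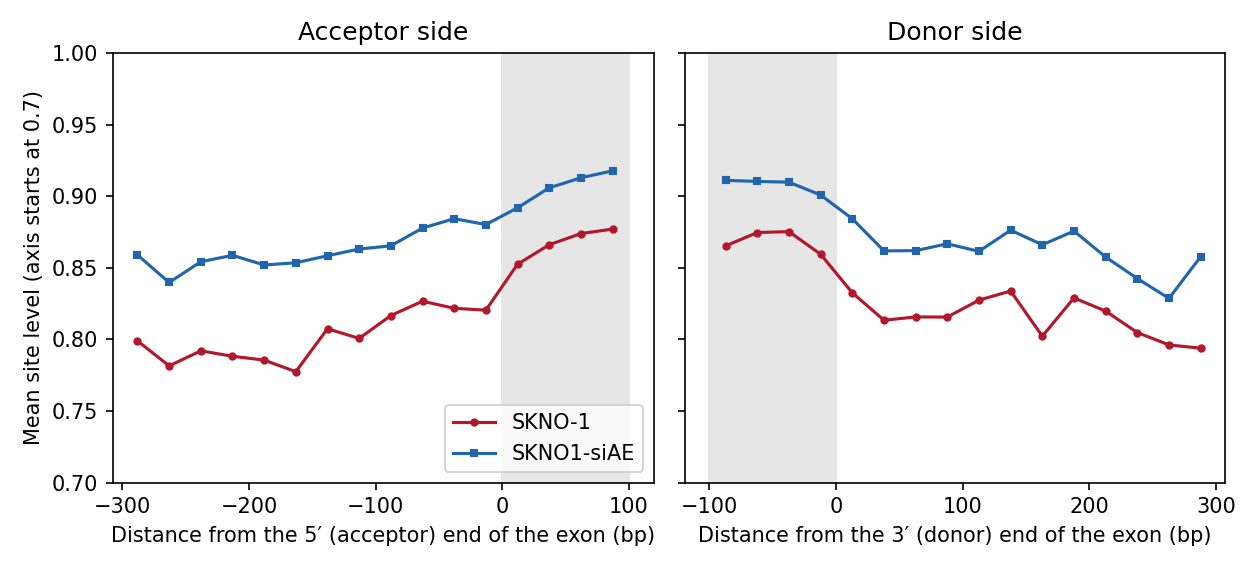
Mean methylation level of sites in bins of 25 bp (vertical axis from 0.7 to 1) by distance from the acceptor end (left) and the donor end (right) of the internal exons, with exonic positions in grey, for SKNO-1 (red circles) and SKNO1-siAE (blue squares). Both libraries rise at the exon border, and SKNO-1 lies below SKNO1-siAE in every bin.

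Within the coding sequence, the place of the CpG in the codon made little difference. Sites in CGN codons, which encode arginine, averaged 0.883 in SKNO-1 and 0.920 in SKNO1-siAE (36611 sites). Sites at codon positions 2 and 3 had 0.866 and 0.908 (28884 sites), and sites that span a codon border had 0.860 and 0.903 (52213 sites). The order was the same in both libraries.

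The share of exons that differed varied between chromosomes. Exons lower by at least 0.2 in SKNO-1 made up from 3.47% (chromosome 13, 144 exons) to 15.2% (chromosome 20, 165 exons). Exons higher in SKNO-1 were most frequent on chromosome 5, with 6.19% of 291 exons. The median log2 read ratio of the exons was 0.33 on chromosome 5, -0.46 on chromosome 13 and 0.02 on chromosome 20. Split by this ratio over all exons, 10.5% of the 2512 exons with the lowest ratio were lower in SKNO-1, and 8.45% of the 2510 with the highest, while 2.11% and 3.31% of them were higher in SKNO-1.

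The genes of the fusion and of DNA methylation had mostly methylated exons in both libraries. Exon 7 of RUNX1, the only measured internal exon of the gene, was at 0.927 in SKNO-1 and 0.859 in SKNO1-siAE over 15 sites (pooled site reads 185 of 199 and 188 of 210). RUNX1T1, UBXN8 and DNMT3B had 0 exons that met the rule. DNMT1, the maintenance methyltransferase, had exons 27, 29 and 30 at 0.990, 0.987 and 0.965 in SKNO-1 and at 1, 0.970 and 0.941 in SKNO1-siAE, and exon 15 of DNMT3A, a de novo methyltransferase, was at 0.914 and 0.838. Among 24 exons of 9 genes of the fusion partners and their co-repressors, 0 differed by at least 0.2, where 9.14% of all internal exons were lower and 2.79% higher, and their medians were 0.978 and 0.970. Lists this short can hold few such exons at those shares. The lowest difference of this list was at exon 3 of HDAC1, a histone deacetylase (0.762 in SKNO-1 and 0.936 in SKNO1-siAE). Among 26 exons of 10 genes for DNA methylation enzymes and readers, 1 was lower in SKNO-1 and 0 were higher, the lower being exon 3 of MBD4, a glycosylase for mismatches at CpG sites (0.207 and 0.722). Exon 17 of UHRF1, the partner of DNMT1 at replicating DNA, differed most in the other direction (0.950 and 0.802).

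Myeloid and haematopoietic genes were measured in 28 exons of 18 genes, with medians of 0.952 in SKNO-1 and 0.963 in SKNO1-siAE. Here 2 exons (7.14%) were lower and 2 (7.14%) higher, beside 9.14% and 2.79% of all internal exons. The lower ones were exon 6 of GFI1B (0.725 and 1) and exon 4 of PRTN3 (0.666 and 0.901). GFI1B is a transcriptional repressor active in the erythroid and megakaryocytic lineages, and PRTN3 is a granule protease. The 2 higher exons were exon 7 of IRF4 (0.705 and 0.495) and exon 9 of MYB, a transcription factor of haematopoietic progenitors. The MYB exon had 229 of 679 site reads methylated in SKNO-1 (0.337, Wilson interval 0.303 to 0.374) and 7 of 587 in SKNO1-siAE (0.0119, 0.00579 to 0.0244), over 12 sites, and contained an annotated transcript start. Housekeeping genes, with 19 exons of 11 genes, had medians of 0.962 and 0.973, with 1 exon (5.26%) lower and 2 (10.5%) higher. The exons that differed were exons 3 and 4 of EEF2, the translation elongation factor (0.929 and 0.944 in SKNO-1, 0.697 and 0.631 in SKNO1-siAE), and exon 10 of PSMC5, a proteasome ATPase (0.777 and 1).

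Homeobox and paired box genes, regulators of development, had 34 exons of 23 genes with medians of 0.863 in SKNO-1 and 0.916 in SKNO1-siAE, below those of all internal exons (0.945 and 0.960). Of these, 4 (11.8%) were lower and 1 (2.94%) was higher in SKNO-1, near the shares of 9.14% and 2.79% of all internal exons. Lower in SKNO-1 were exon 3 of HOXB6 (0.0348 and 0.687) and exons of PITX3, PAX7 and IRX6 (differences of -0.480, -0.333 and -0.271), and higher was exon 2 of PITX1 (0.415 and 0.118). T-box, SOX, GATA and forkhead genes had 28 exons of 16 genes with medians of 0.933 and 0.956. Of these, 4 (14.3%) were lower (exon 5 of GATA5 with 0.462 and 0.985, and exons of SOX13, TBXT and SOX5) and 0 were higher. The highest difference in that list was at exon 4 of the same GATA5, a cardiac and gut transcription factor gene, with 0.867 and 0.693.

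Collagen and laminin genes, which encode the extracellular matrix and basement membrane, had 73 exons of 29 genes and the lowest medians of these lists, 0.841 in SKNO-1 and 0.898 in SKNO1-siAE. Of the 73, 16 (21.9%) were lower and 4 (5.48%) were higher in SKNO-1, beside 9.14% and 2.79% of all internal exons. The lowest was exon 18 of COL3A1, a fibrillar collagen, with 0 of 245 site reads methylated in SKNO-1 (0, Wilson interval 0 to 0.0154) and 244 of 258 in SKNO1-siAE (0.946, 0.911 to 0.967), and the highest was exon 2 of COL23A1 described above. COL1A2 and COL5A1 each had 3 of the lower exons. Besides COL23A1, the higher exons were in LAMB2 (0.944 and 0.390), COL12A1 and COL7A1. Neuronal ion channel genes had 127 exons of 41 genes with medians of 0.907 and 0.941, of which 12 (9.45%) were lower and 4 (3.15%) were higher, close to the shares of all internal exons. The lowest was exon 3 of GRIK4 (0.0487 and 0.955), and the highest was exon 2 of KCNH2, the hERG potassium channel, with 83 of 111 site reads methylated in SKNO-1 and 0 of 95 in SKNO1-siAE. The other higher exons were in CACNA1H, KCNMA1 and CACNA1I. Beyond the extremes of each list, exons were named because their counts were small, after their values were seen.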

How the data were processed

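MCC-Seq was done by the authors on bisulfite-converted DNA of SKNO-1 and SKNO1-siAE, captured with SeqCap Epi probes and sequenced as paired reads. Per the submitters' processing notes, cutadapt 1.4.2 and BSMAP 2.73 were used with hg19. The authors deposited unnormalized counts of methylated and unmethylated reads for each CpG cytosine and strand, and every deposited site had at least 5 reads. Removal of PCR duplicates is not given in the sources used here beyond the use of unique sequences, and duplicates would narrow the counting error shown. The capture also decides which exons can be measured.

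From these counts, levels were computed as the methylated fraction of reads, for sites that reached 5 reads in each library, and averaged per exon with at least 5 sites. Exon positions follow the GRCh37 version of GENCODE release 44, and sequences were read from the GRCh37 assembly. Exons shared by transcripts were counted once (200 duplicates removed). Sites were compared with a 2-sided Fisher's exact test adjusted by Benjamini-Hochberg over all 3168726 shared sites, with a minimum difference of 0.2, which was tested on simulated reads. With 1 library per cell line, no test between conditions was made. Median site reads per exon (depths summed over its sites) were 210 in SKNO-1 and 212 in SKNO1-siAE.

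The exons, gene lists and tests were chosen with earlier results of these data known. Named were, per direction, up to 12 exons with the largest difference among those under 0.1 in one library and at least 0.8 in the other with 10 sites and 100 site reads, 1 per gene. Also named were exons of the fusion partners, UBXN8 and the DNMT genes, the highest and lowest exon of each list, genes with 3 exons low in one library only, and the 6 exons low in both with the most sites. Under this rule, 1 item is not reported here. Alternatives varied the minimum reads and sites, strand merging, pooling of reads, the distance from starts, coding sites, depth balance, own sites, the limits of a difference or state, and the adjustment. Tables were handled with pandas 2.3.3 in python 3.11.15, tests ran in numba 0.67.0 with scipy 1.17.1 as a check, sequences were read with pysam 0.24.0, and plots were drawn with matplotlib 3.10.9.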

Additional observations from a re-analysis of the deposited data

How the results depend on the processing

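The mean difference was below 0 in the 9 alternatives that gave one, more exons were lower than higher in SKNO-1 in 10 of 10, more were unmethylated in SKNO-1 only than in SKNO1-siAE only in 11 of 11, and more sites were called lower than higher in 3 of 3. Of 48 alternative counts, 27 were within 1.5 times the reported count. Of 27 alternative means, 2 were within the narrow counting interval of the reported mean (0.000409, 0.000349 and 0.000538 to either side for SKNO-1, SKNO1-siAE and their difference), so most moves given below are small. The mean level in SKNO-1, the mean level in SKNO1-siAE and the mean difference were 0.872, 0.909 and -0.0370 with at least 10 reads per site, 0.856, 0.899 and -0.0432 with merged strands, 0.871, 0.910 and -0.0385 with at least 10 sites, 0.860, 0.902 and -0.0419 over 5 kb from protein-coding starts, 0.851, 0.895 and -0.0448 over 2 kb from any annotated start, 0.871, 0.910 and -0.0391 over sites with depths within 25% of each other, and 0.853, 0.895 and -0.0415 over each library's own sites. The levels alone moved to 0.859 and 0.899 with pooled reads and to 0.858 and 0.898 with coding sites only. Higher, lower and SKNO-1-only unmethylated exons numbered 105, 391 and 54 with at least 10 reads, where 5080 exons remained. With at least 10 sites, with no annotated start within 2 kb and with near equal depth, the higher, lower, SKNO-1-only and SKNO1-siAE-only counts were 75, 330, 58 and 15 of 4573 exons, 98, 389, 51 and 12 of 4165, and 59, 228, 29 and 9 of 2471, so fewer exons entered by construction. Exons unmethylated in SKNO1-siAE only numbered 17 over 5 kb from starts and 16 where SKNO-1 had to reach 0.8. A minimum difference of 0.3 left 115 higher and 429 lower exons, and Bonferroni adjustment 290 higher and 1187 lower sites. No paired analysis was possible because each cell line had 1 library, and for the same reason no replicate could be left out. A median depth of 16 reads limits the single site, and exons under 50 site reads were the least certain.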
